A study of Mus musculus with 60 samples.

Results

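The SoxB and Pou3f genes are 9 of the 21842 protein-coding genes whose promoters were examined for H3K27me3, the repressive mark that PRC2, a Polycomb complex with SUZ12 as a subunit, places on histone H3. They were taken by family as Sox1, Sox2, Sox3, Sox14, Sox21, Pou3f1, Pou3f2, Pou3f3 and Pou3f4. The mark was mapped by CUT&RUN, in which a nuclease is tethered to antibody-bound chromatin, while mouse embryonic stem cells were driven towards anterior neural progenitors in a defined medium. The tested cells were Tet1 knockout cells (KO) and cells with a catalytically dead TET1 (MUT), and the controls were wild-type cells (WT). Samples came from day 0, day 2, day 3 and day 5, and from day 5 after 5 µM XAV, an inhibitor of Wnt signalling, given from day 2 (day 5 XAV). All lines carry the background label B6129S6F1 Tet1tm1Koh. The MUT lines were made by Cas9 homology-directed repair and descend from a single parental wild-type line. Each genotype had 2 lines at each of 5 time points, giving 30 H3K27me3 libraries, and the line is the replicate. Lines WT70 and WT72 ran throughout, KO15 was paired with KO25 up to day 2 and with KO1 afterwards, and CM59 with CM40 up to day 2 and with CM69 afterwards, so that a difference between early and late time points in KO or MUT cannot be told apart from a difference between lines.

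SOX proteins of the B group bind DNA through an HMG box. Sox1, Sox2 and Sox3 form the B1 subgroup, whose products keep neural progenitors undifferentiated, and Sox14 and Sox21 form the B2 subgroup, whose products act mainly as repressors. Class III POU factors are encoded by Pou3f1 to Pou3f4, also known as Oct6, Brn2, Brn1 and Brn4, and act with SOX proteins on neural enhancers. TET1 oxidises 5-methylcytosine, and it also has functions at Polycomb-bound promoters that do not need this activity.

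A promoter was called in a library when a peak reached within 1.5 kb of a start site. Width is the summed length of the peaks that did so. The rank percentile is the percentage of the peaks of the same library that had a lower total signal than the strongest of them. In a library where the promoter was not called, width and rank percentile were set to 0. Their averages and tests therefore also reflect how often a promoter was called. Signal itself was not compared between libraries, since it was not scaled for depth, and read depth is unknown from peak files. The number of peaks per library was 704 to 3466 (median 1789). At day 5 there were 2122 and 2738 peaks in KO, 2847 and 1191 in MUT, and 1270 and 1385 in WT, so the number of peaks moved with genotype at that time point. The smallest library was CM59 at day 5 XAV, with 704 peaks. For line KO25 the title and genotype fields were followed, although the free-text description of its samples names WT70. The libraries come from bulk cultures, in which fewer cells carrying the mark and less mark per cell cannot be told apart. Of 10 housekeeping promoters, 0 were called in any library. In the marker lists, 1 of 6 stem cell, 3 of 6 anterior neural, and 5 of 7 mesoderm and endoderm promoters were called in all 30 libraries, and 2, 1 and 0 of them in none. Promoters of the mesoderm and endoderm regulators T, Eomes, Sox17, Foxa2 and Gata4 were called in all 30. So were those of the neural regulators Pax6, Lhx5 and Six3 and of the stem cell gene Esrrb. Among the other stem cell genes, Klf4 was called in 21 libraries, Tdgf1 in 3, and Nanog and Zfp42 in 0. The promoter of Pou5f1 was called in 0 libraries up to day 3 and in 5 of 6 at day 5.

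Of the 9 genes, 8 have a single exon in the GENCODE annotation of GRCm38, and Sox14 is the exception. In that annotation the B1 genes are Sox1 (chr8:12395295-12400126, plus strand), Sox2 (chr3:34650405-34652461, plus strand) and Sox3 (chrX:60891366-60893430, minus strand). The B2 genes are Sox14 (chr9:99874106-99876170, minus strand) and Sox21 (chr14:118233232-118237030, minus strand). The class III POU genes are Pou3f1 (chr4:124656807-124660655, plus strand), Pou3f2 (chr4:22482780-22488366, minus strand), Pou3f3 (chr1:42695768-42703176, plus strand) and Pou3f4 (chrX:110814280-110817207, plus strand). Sox1 and Sox2 lie inside the longer transcripts Sox1ot and Sox2ot on the same strand, and the starts of Sox21 and Pou3f1 are overlapped by the antisense genes Gm4675 and Gm2164, so that a peak there belongs to both. Within 1.5 kb of the start, observed-to-expected CpG ratios of 8 of the 9 lay between 0.616 for Sox14 and 0.844 for Sox3, against a median of 0.413 over 21829 genes. Pou3f4 lay lowest of the 9, at 0.587 and with 104 CpG in 3 kb, against 154 to 281 in the other 8. The median was 141 CpG over the 439 genes called in all 30 libraries and 65 over the 18255 genes called in none. The promoters of 4 genes are printed because they span the range of marking found here: Sox1 and Sox14 were called in nearly every library, Sox2 in 2 and Pou3f4 in 0. The sequences run from 250 bases before to 50 bases after the RefSeq start (GRCm38.p6), which can differ from the GENCODE start used for the calls, and CpG dinucleotides are in capitals. Of the 9 genes, 7 matched the RefSeq promoter table, where the median promoter held 7 CpG.
Sox1 (chr8:12395269-12395568, plus strand, 37 CpG): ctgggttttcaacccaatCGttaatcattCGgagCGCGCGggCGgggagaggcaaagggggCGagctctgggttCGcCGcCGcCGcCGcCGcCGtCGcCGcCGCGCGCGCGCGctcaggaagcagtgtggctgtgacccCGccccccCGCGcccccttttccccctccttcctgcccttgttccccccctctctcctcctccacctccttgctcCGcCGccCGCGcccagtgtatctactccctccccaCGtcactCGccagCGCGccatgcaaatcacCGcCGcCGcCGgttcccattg
Sox14 (chr9:99876121-99876420, minus strand, 26 CpG): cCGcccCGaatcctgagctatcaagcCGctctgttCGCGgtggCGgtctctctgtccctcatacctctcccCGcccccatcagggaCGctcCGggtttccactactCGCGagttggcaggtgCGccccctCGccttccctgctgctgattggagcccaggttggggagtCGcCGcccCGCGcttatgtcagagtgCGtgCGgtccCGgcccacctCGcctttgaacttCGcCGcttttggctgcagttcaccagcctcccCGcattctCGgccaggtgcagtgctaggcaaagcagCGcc
Sox2 (chr3:34649745-34650044, plus strand, 27 CpG): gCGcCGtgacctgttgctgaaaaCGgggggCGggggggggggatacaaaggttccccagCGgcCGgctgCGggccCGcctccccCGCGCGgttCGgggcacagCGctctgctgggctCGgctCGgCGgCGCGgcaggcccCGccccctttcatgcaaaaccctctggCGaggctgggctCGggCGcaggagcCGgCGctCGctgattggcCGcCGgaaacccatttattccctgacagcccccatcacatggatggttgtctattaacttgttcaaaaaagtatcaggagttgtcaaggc
Pou3f4 (chrX:110814129-110814428, plus strand, 15 CpG): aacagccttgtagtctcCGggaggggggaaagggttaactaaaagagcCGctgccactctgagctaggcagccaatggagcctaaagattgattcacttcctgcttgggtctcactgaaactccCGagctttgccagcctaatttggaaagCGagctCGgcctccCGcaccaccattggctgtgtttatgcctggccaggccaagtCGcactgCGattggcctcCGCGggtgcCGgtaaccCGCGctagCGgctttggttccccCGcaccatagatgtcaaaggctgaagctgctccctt
The octamer bound by POU factors (ATGCAAAT, both strands) occurred in 1 of the 7 promoters, that of Sox1, and in 1.74% of 27025 promoters. The SOX core ACAAAG (both strands) occurred in 1 of the 7, that of Sox2, and in 19.0% of all. The shorter core ACAAT (both strands) occurred in 0 of the 7 and in 31.6% of all. Such matches are descriptions of these windows alone.

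The study designed 3 quantitative PCR amplicons at these loci, and their sequences are given because they show which stretch of a locus was assayed for SUZ12 or TET1 binding. Each primer pair matched at 1 place near its gene, the plus strand of GRCm38 is shown, and primer positions are in capitals.
Sox2_TSS, for SUZ12 (chr3:34642326-34642469): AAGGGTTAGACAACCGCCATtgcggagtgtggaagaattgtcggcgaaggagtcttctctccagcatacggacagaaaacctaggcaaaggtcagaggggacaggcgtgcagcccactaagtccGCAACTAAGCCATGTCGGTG
Sox1, for SUZ12 (chr8:12401695-12401827): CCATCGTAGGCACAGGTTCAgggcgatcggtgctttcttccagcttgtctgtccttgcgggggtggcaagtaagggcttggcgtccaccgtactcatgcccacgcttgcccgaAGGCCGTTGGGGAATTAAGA
Sox1_+34kb, for TET1 (chr8:12430172-12430288): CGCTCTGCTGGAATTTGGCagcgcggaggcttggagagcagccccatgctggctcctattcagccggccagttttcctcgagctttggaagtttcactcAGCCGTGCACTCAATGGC
The amplicon named for the Sox2 start site lay -8.08 to -7.94 kb from the annotated start of Sox2, inside the long transcript Sox2ot. An H3K27me3 peak lay over it in 7 of 10 KO, 4 of 10 MUT and 3 of 10 WT libraries, whereas the Sox2 promoter itself was called in 2 KO, 0 MUT and 0 WT libraries. The Sox1 amplicon for SUZ12 lay 6.40 kb past the start, downstream of the single exon, and was covered in 7 of 10 KO, 9 of 10 MUT and 5 of 10 WT libraries. These counts pool all time points. The paper assayed SUZ12 at day 5 without inhibitor, and reports a strong increase in KO and a weaker one in MUT. At day 5 without XAV, peaks lay over the Sox2 amplicon in KO1, KO15 and CM59. They lay over this Sox1 amplicon in both KO and both MUT lines. No WT line had a peak over either one then. The Sox1 amplicon at 34.9 kb past the start, inside Sox1ot, was covered in 8 of 10 KO, 4 of 10 MUT and 4 of 10 WT libraries.

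Over all libraries, the 9 genes fell into 3 kinds of marking. Sox14 (30 of 30 libraries), Sox1 (29), Pou3f3 (27), Sox21 (24) and Pou3f2 (23) were called in most libraries, and Pou3f1 was called in 12. Sox2 and Sox3 were called in 2 libraries each, and Pou3f4 in 0. The promoters of the 9 genes were called 56 times of 90 in KO, 51 of 90 in MUT and 42 of 90 in WT. Up to day 2 the counts were 22 of 36 in KO, 22 of 36 in MUT and 20 of 36 in WT. After day 2 they were 34 of 54 in KO, 29 of 54 in MUT and 22 of 54 in WT. KO libraries held 1729 to 2738 peaks after day 2 and WT libraries 969 to 1717, so the number of peaks moved with these counts. Of 2856 promoters tested, 2425 had a larger KO minus WT in width after day 2 than up to day 2. The share of all promoters called in each genotype and period is not given here. Calls were also more frequent in KO over the genome, where 1582 of 2856 promoters tested were called in more KO than WT libraries and 291 in fewer, and for MUT against WT the counts were 1149 and 475 of 2895. Among the other 15 SOX genes the median number of libraries called was 4, among the other 12 POU genes it was 2.5, and for the 9 genes it was 23. Over all protein-coding genes 439 were called in all 30 libraries and 18265 in none.

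**Figure D1:**
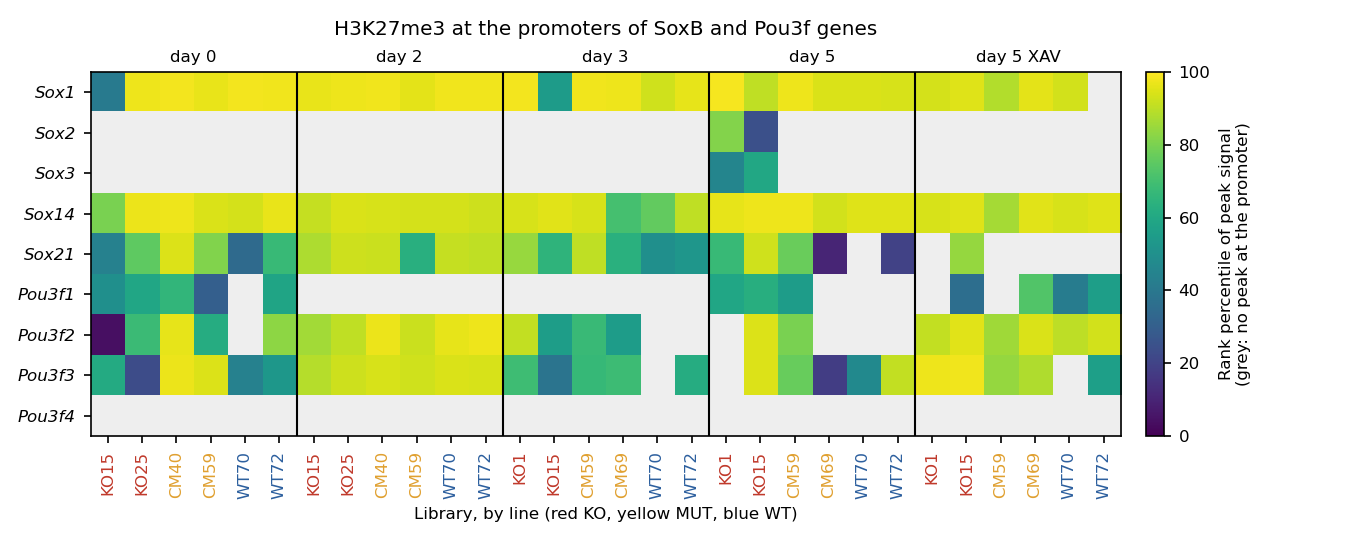
Rank percentile of the promoter peak (colour) for each gene (rows) in each library (columns), ordered by time point and, within it, KO, MUT and WT; grey means no peak within 1.5 kb of a start site. Sox1 and Sox14 stay near the top of most libraries, Sox2 and Sox3 carry a peak in both KO lines at day 5 and nowhere else, and Pou3f1 has none at day 2 or day 3.

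Sox2, which encodes a B1 factor needed in both pluripotent and neural progenitor cells, carried H3K27me3 at its promoter in both KO lines at day 5 and in no other of the 30 libraries. In KO1 the peak was 10.9 kb wide, at the 81.4th rank percentile, and ran from -9.58 kb to 1.35 kb around the start site. In KO15 it was 4.06 kb wide, at the 24.3rd rank percentile, and ran from -2.90 kb to 1.16 kb. It covered 65.9% of the gene in KO1 and 56.5% in KO15, against 0% in every MUT and WT library. By the paper's account, the day 5 KO and WT cultures also held different cell types, which cannot be told apart from genotype here.
Sox3, the X-linked B1 gene, showed the same distribution of calls, also in KO1 and KO15 at day 5 alone. Its peak was 8.43 kb wide at the 45.5th rank percentile in KO1 and 8.91 kb wide at the 60.0th in KO15, and covered 88.7% and 98.1% of the gene. Just outside the window, CM40 and WT72 at day 0 had a peak that ended 1.59 kb and 1.57 kb from the start site and did not reach the gene.

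Calls in both day 5 KO libraries and in no other of the 30 were seen at 14 of the 3178 promoters called in at least 2 libraries (0.441%), and Sox2 and Sox3 were 2 of these 14. Calls in both KO lines and neither WT line at day 5 were common, at 622 of 2856 promoters (21.8%), and 3 of the 9 genes had them, namely Sox2, Sox3 and Pou3f1. The number of peaks moved with these calls. With the same number of peaks taken from every library of a time point, Sox3 was called in 2 of 2 and Sox2 in 1 of 2 day 5 KO libraries, and both in 0 of 2 MUT and 0 of 2 WT libraries. CM59 at day 5, 1 MUT library, had 2847 peaks, and neither promoter was called there. The part of the number of peaks in these calls was not tested. With 2 lines of each genotype at a single time point the smallest exact p is 0.33, above the threshold. KO and WT libraries of the other time points had no peak at either promoter. The exact permutation p for KO against WT over all 5 time points was therefore fixed at 0.33 for either gene in all 3 measures.

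The flanks of Sox2 were marked more widely than its promoter. A peak lay upstream, between 12 and 5 kb before the start, in 14 of 30 libraries, and downstream, between 9 and 17 kb past it, in 13. At day 2 all 6 libraries had both, with the stretch around the gene free of peaks. At day 3 the upstream peak was present in 2 of 2 KO, 0 of 2 MUT and 0 of 2 WT libraries, and the downstream peak in 2 of 2 KO, 1 of 2 MUT and 0 of 2 WT libraries. At day 5 both peaks were present in 2 of 2 KO, 1 of 2 MUT and 0 of 2 WT libraries. With XAV at day 5 the upstream peak was in 0 of 6 libraries and the downstream peak in KO15 alone. These stretches were chosen after the peaks were seen, and no separate test was made of them. The covered length within 15 kb of the Sox2 start, which counts much of these same peaks, averaged 7.96 kb in KO and 2.53 kb in WT. Its exact permutation p was 0.0309 (adjusted p = 0.266), in a measure added after the data were seen. It is therefore no independent test of the flanks. The share of all promoters under 0.05 in this measure is not given here.

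**Figure D2:**
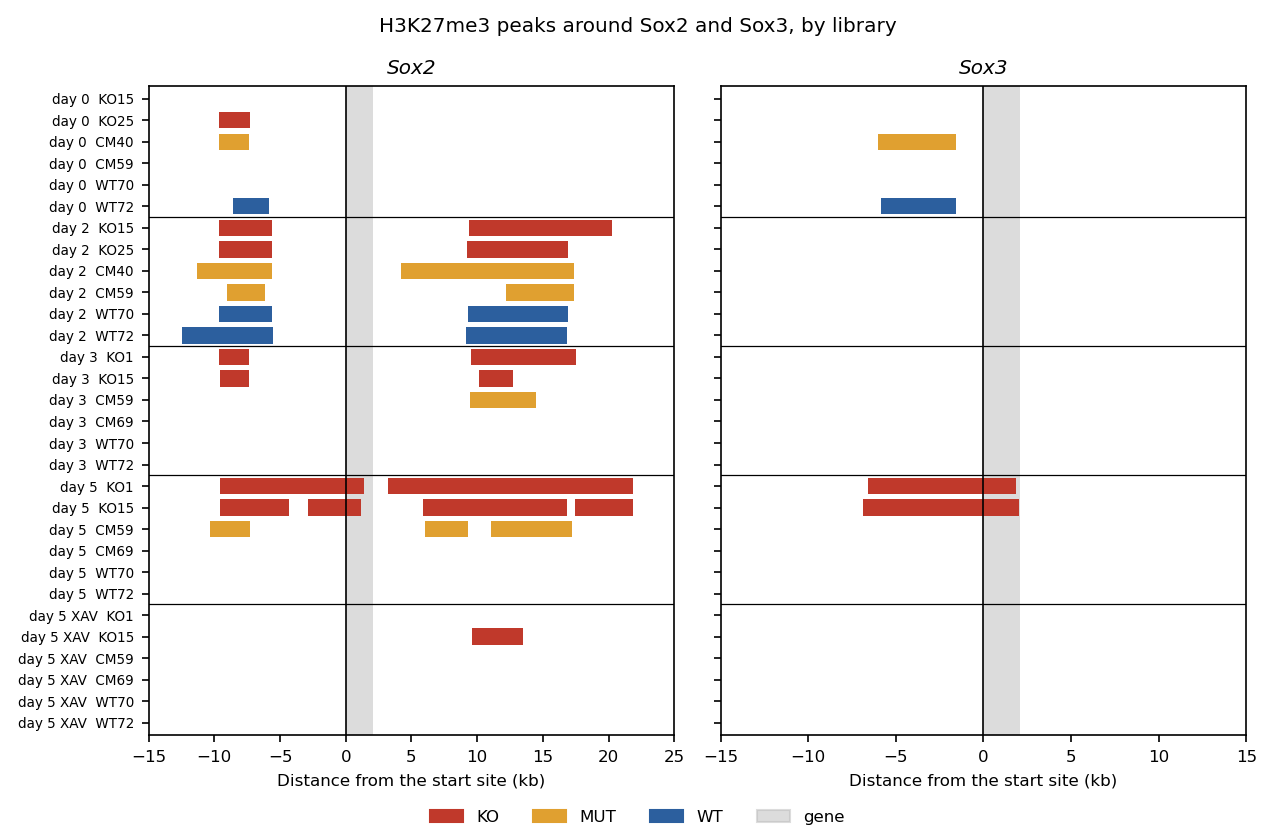
H3K27me3 peaks (bars) in each of the 30 libraries around Sox2 and Sox3, against distance from the start site in the direction of transcription (kb), with the gene in grey; libraries run by time point and, within it, KO (red), MUT (yellow) and WT (blue). The peaks reach the start site in KO1 and KO15 at day 5 and in no other library, and peaks on both sides of Sox2 are present in all 6 libraries at day 2.

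Sox1, the B1 gene that marks the neuroectoderm, lay in a domain called in 29 of 30 libraries, the exception being WT72 at day 5 XAV, where the peak ended 1.99 kb before the start. The rank percentile of the called peak had a median of 96.5 and a range of 41.1 to 98.5. All peaks at the promoter together spanned 26.7 kb (chr8:12378655-12405311). What differed between libraries was the side of the domain that held the gene. Up to day 2, peaks covered 53.4% to 100% of the gene in all 12 libraries. At day 3 the covered share was 100% in KO1 and 61.9% in KO15, 100% in CM59 and 58.7% in CM69, and 0% in WT70 and 100% in WT72. At day 5 it was 100% and 100% in KO, 54.8% and 15.9% in MUT, and 0% and 0% in WT. KO lay above MUT and MUT above WT at day 5, without overlap, while the stretch before the start stayed marked in all 6 libraries. Both KO libraries also held more peaks than both WT libraries at day 5. Here and for the genes below, the share of all promoters whose lines separate in this way was not counted. Such an order is therefore not a trait of the gene. In the day 5 XAV libraries the covered share was 0% in KO1 and 4.20% in KO15, 0.579% in CM59 and 63.2% in CM69, and 0% in both WT lines. In this share KO no longer stood apart from WT. Promoter width there was 13.8 and 15.1 kb in KO and 13.2 and 0 kb in WT. The covered length within 15 kb of the start was 13.7 and 15.1 kb in KO and 13.2 and 12.3 kb in WT. In both of these measures the KO lines lay above the WT lines.

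The width of the Sox1 peaks differed from the covered share, since in KO15 at day 0 and day 3 the domain was split into several peaks and the promoter peak was 4.77 kb and 4.28 kb wide. Mean width was 16.7 kb in KO and 17.0 kb in WT, while the covered length within 15 kb of the start averaged 20.7 kb in KO, 21.6 kb in MUT and 18.5 kb in WT, so that the sign of KO minus WT depends on the measure. In that covered length, added after the data were seen, MUT against WT had an exact permutation p of 0.0319 (adjusted p = 1). Within WT, width averaged 12.8 kb in the 6 libraries after day 2 and 23.4 kb in the 4 up to day 2, a difference of -10.5 kb (exact permutation p = 0.0333, adjusted p = 0.0840 over 2096 promoters). In the covered share of the gene, a measure added after the data were seen, the WT means were 16.7% after day 2 and 94.5% up to day 2 (exact permutation p = 0.0476, adjusted p = 0.128). KO minus WT in the covered share was 44.4 percentage points after day 2 and -11.6 up to day 2, and the exact permutation p of the difference between these was 0.0509 (adjusted p = 0.326).

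**Figure D3:**
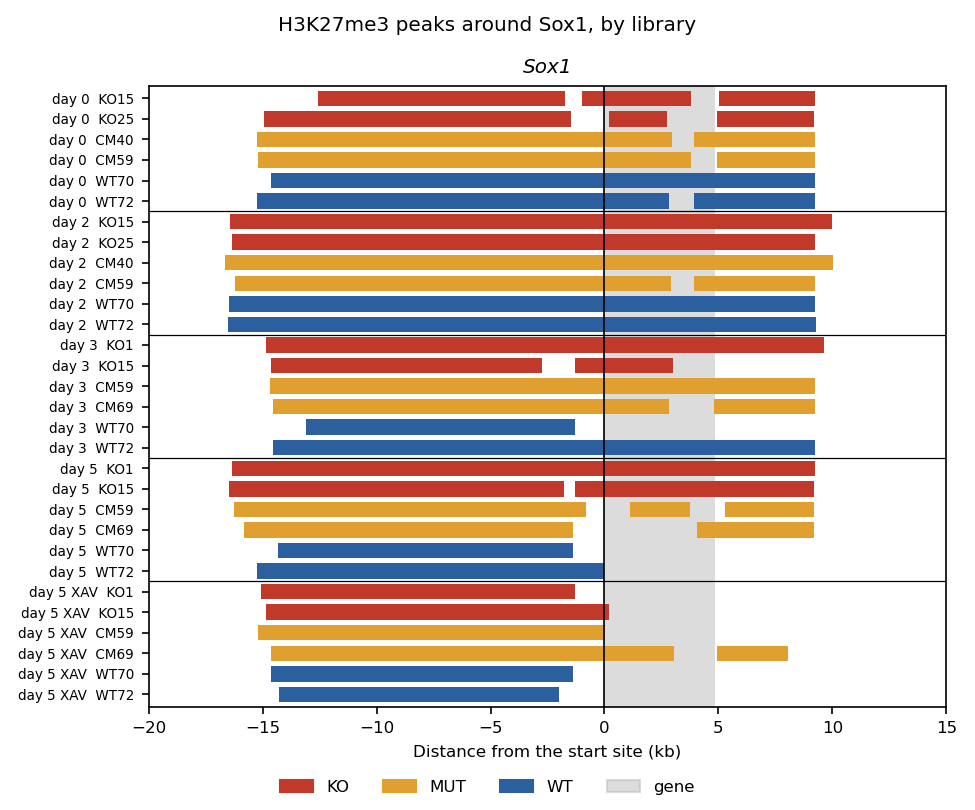
H3K27me3 peaks (bars) in each library around Sox1, against distance from the start site (kb), with the single-exon gene in grey; libraries run by time point and, within it, KO (red), MUT (yellow) and WT (blue). Peaks cover the gene in all 12 libraries up to day 2, and at day 5 they cover it fully in both KO lines and not at all in either WT line, with the upstream stretch marked in every library.

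Sox21, a B2 gene expressed with the B1 genes in neural progenitors and known to counteract them, was called in 9 of 10 KO, 8 of 10 MUT and 7 of 10 WT libraries. At day 0 the peaks were 4.16 and 6.82 kb wide in KO, 15.0 and 9.19 kb in MUT, and 4.86 and 4.85 kb in WT. At day 2 they were 18.1 and 19.1 kb wide in KO, 20.4 and 3.93 kb in MUT, and 16.3 and 16.3 kb in WT. Widths in KO and WT thus overlapped at day 0, while both KO lines were wider than both WT lines at day 2.
At day 3 the widths were 11.6 and 4.83 kb in KO, 15.6 and 4.19 kb in MUT, and 4.79 and 4.91 kb in WT. KO overlapped both other genotypes there. At day 5 the widths were 7.67 and 14.4 kb in KO, 9.95 and 4.76 kb in MUT, and 0 and 4.88 kb in WT. Both KO lines lay above both WT lines at day 5, and MUT overlapped WT. At day 5 XAV only KO15 had a peak at the promoter, of 16.2 kb, and the other 5 libraries kept a peak that began 3.70 to 6.84 kb past the start.

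Averaged over the time points, the width of the Sox21 promoter peaks was 10.3 kb in KO and 5.69 kb in WT (difference 4.60 kb, exact permutation p = 0.00617, adjusted p = 0.212 over 2856 promoters). Separate peaks farther past the start, present in libraries of both genotypes, are left out of this width, so it is not the whole marked length. Its rank percentile averaged 69.3 in KO and 40.6 in WT (difference 28.8, exact permutation p = 0.0170, adjusted p = 0.208). It was the only gene of the 9 with an exact p under 0.05 for KO against WT in calls, width or rank, against a background of 13.9% of promoters in width, 16.8% in rank and 4.10% in calls. Neither value passed the adjusted threshold, and 0% of the 2856 promoters did in any of the 3 measures. Over 11 alternative settings the exact p of the width difference ranged from 0.00617 to 0.148 and was above 0.05 without WT70 and without WT72. Within WT, width averaged 2.43 kb after day 2 and 10.6 kb up to day 2 (difference -8.16 kb, exact permutation p = 0.0286, adjusted p = 0.0840), and rank averaged 20.4 after day 2 and 70.9 up to day 2 (difference -50.5, exact permutation p = 0.0286, adjusted p = 0.0907).

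Sox14, the other B2 gene, was called in every library at a median rank percentile of 94.1 (range 70.4 to 97.6), over a median width of 15.4 kb. At day 5 XAV its peaks were 19.1 and 17.6 kb wide in KO, 14.2 and 15.5 kb in MUT, and 13.3 and 11.3 kb in WT. The KO lines lay above the MUT lines and these above the WT lines there, an order that no test at a single time point can decide. Over all time points the mean width was 16.5 kb in KO, 15.6 kb in MUT and 13.7 kb in WT.

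Pou3f1, the class III POU gene active in the transition from pluripotent to neural cells, was marked in 2 separate phases. At day 0 it was called in 5 of 6 libraries, all but WT70, with widths of 5.15 to 6.39 kb. At day 2 and day 3 it was called in 0 of 12 libraries, and the nearest peak lay 225 to 234 kb away. At day 5 peaks of 6.03 and 5.22 kb were present in KO, 5.14 and 0 kb in MUT, and 0 and 0 kb in WT. With XAV they were 0 and 5.09 kb in KO, 0 and 6.69 kb in MUT, and 3.68 and 5.16 kb in WT. KO stood apart from WT at day 5 and overlapped it at day 5 XAV. The rank percentile of the called peaks was 30.4 to 72.7, below the median rank of Sox1 and Sox14.

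Pou3f2, which encodes a factor able to drive neuronal fate together with others, was called in 9 of 10 KO, 9 of 10 MUT and 5 of 10 WT libraries. In 6 of the 7 libraries that were not called, peaks lay on both sides of its start with a gap between them, and in WT70 at day 3 a peak lay before the start alone. In WT the start was free of peaks at day 0 in WT70 and at day 3 and day 5 in both lines. At day 2 peaks of 13.3 and 13.0 kb were found in KO, 27.9 and 12.6 kb in MUT, and 27.8 and 27.7 kb in WT. Both KO lines lay below both WT lines there, and the KO peaks ended 0.712 kb and 0.654 kb before the start, with further peaks past it that the width leaves out.
At day 3 the widths were 18.1 and 4.34 kb in KO, 5.71 and 4.14 kb in MUT, and 0 and 0 kb in WT. At day 5 they were 0 and 12.8 kb in KO, 5.81 and 0 kb in MUT, and 0 and 0 kb in WT. At day 5 XAV they were 14.2 and 24.9 kb in KO, 16.8 and 14.2 kb in MUT, and 12.7 and 13.6 kb in WT. KO and MUT lay above WT at day 3, they overlapped it at day 5, and KO and MUT lay above WT again at day 5 XAV.

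KO minus WT in Pou3f2 width was 8.03 kb after day 2 and -7.07 kb up to day 2, a difference of 15.1 kb (exact permutation p = 0.0116, adjusted p = 0.185), against a background of 16.8% of 2856 promoters with an exact p under 0.05. In rank percentile the corresponding difference was 47.8 (exact permutation p = 0.113, adjusted p = 0.315), against a background of 24.1%, and after adjustment 0% of promoters passed in either measure. Of the 8 genes tested, 1 had an exact p under 0.05 in width and 0 in rank. Without WT72 the width difference was 13.9 kb with an exact permutation p of 0.0823. In the covered length within 15 kb of the start, which counts all peaks on both sides and was added after the data were seen, KO minus WT was 7.53 kb after day 2 and -3.50 kb up to day 2 (exact permutation p = 0.00386, adjusted p = 0.163).

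With XAV, Pou3f2 was the 1 gene of the 8 tested with an exact p under 0.05, and it did not pass after adjustment. Its promoter was called in all 6 libraries at day 5 XAV and in 2 of 6 at day 5. Width averaged 16.1 kb with XAV and 3.10 kb without it (difference 13.0 kb, exact permutation p = 0.00926, adjusted p = 0.253 over 2348 promoters), where 0.00926 is the smallest p the design allows. The rank percentile averaged 91.7 with XAV and 29.1 without it (difference 62.6, exact permutation p = 0.0185, adjusted p = 0.557). Libraries without a call count as 0 in these averages. The 2 peaks called at day 5 without XAV ranked at 94.6 in KO15 and 79.9 in CM59, so the rank difference largely restates the calls. An exact p under 0.05 was reached by 10.5% of promoters in width and 6.47% in rank, and by 1 of 8 of the genes tested in either. After adjustment 0% of promoters passed in either measure. With the same lines paired, the exact p was 0.0312 in both measures, the smallest that pairing allows. Sox21 was lower with XAV, in 1 of 6 libraries against 5 of 6 without it, at 2.69 kb with XAV and 6.94 kb without it, a difference whose exact p was not under 0.05.

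**Figure D4:**
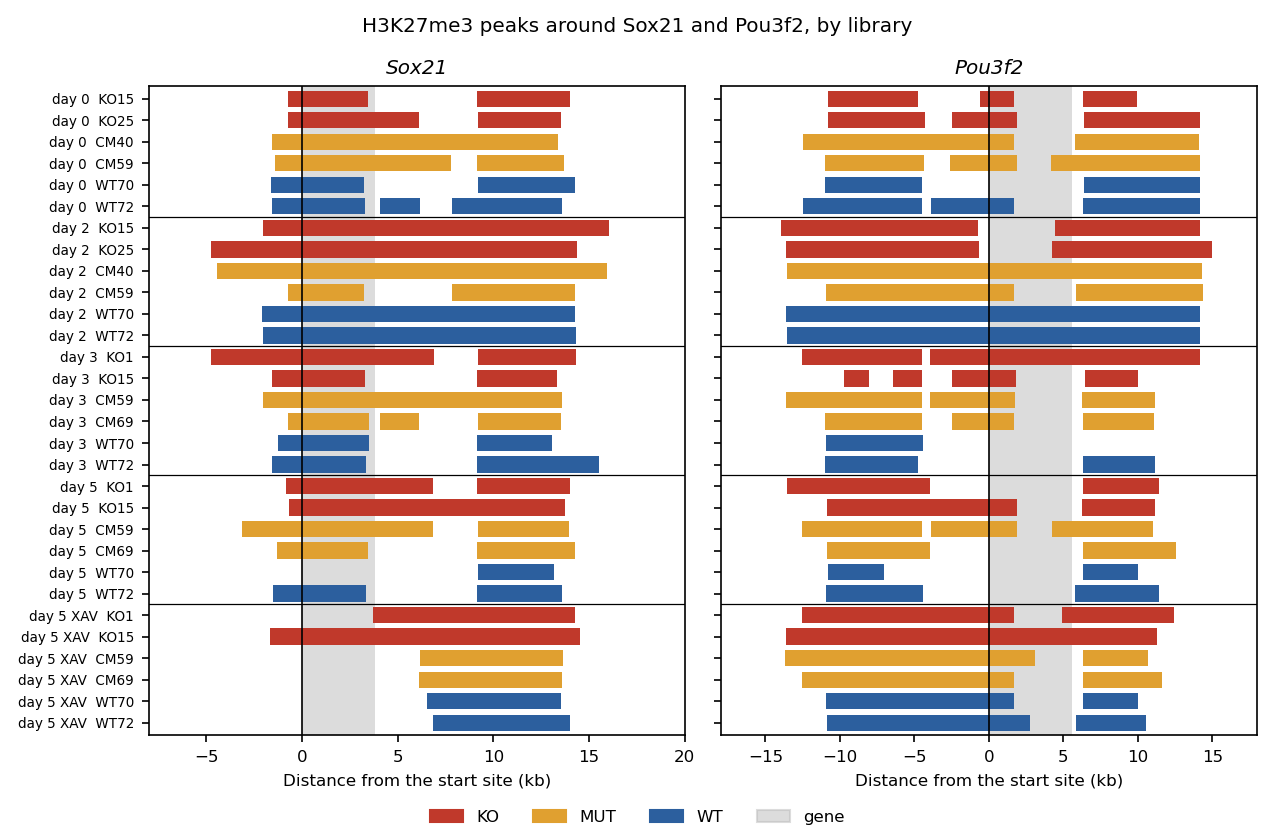
H3K27me3 peaks (bars) in each library around Sox21 and Pou3f2, against distance from the start site in the direction of transcription (kb), with the gene in grey; libraries run by time point and, within it, KO (red), MUT (yellow) and WT (blue). At day 5 XAV the Sox21 start is free of peaks in 5 of 6 libraries, while the Pou3f2 start is covered in all 6.

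Pou3f3, a class III gene with roles in forebrain and kidney, was called in 9 of 10 KO, 10 of 10 MUT and 8 of 10 WT libraries. At day 0 its peaks were 6.69 and 3.75 kb wide in KO, 17.0 and 16.9 kb in MUT, and 7.19 and 3.75 kb in WT, and MUT stood apart from both other genotypes. At day 2 all 6 libraries had 17.0 to 21.2 kb. At day 5 XAV the peaks were 31.5 and 31.6 kb wide in KO, 20.5 and 17.3 kb in MUT, and 0 and 4.32 kb in WT. KO lay above MUT and MUT above WT there, but further peaks on both sides of the start in both WT lines are left out of this width. In the covered length within 15 kb of the start, added after the data were seen, the contrast was smaller. It was 27.8 and 27.9 kb in KO, 22.7 and 20.8 kb in MUT, and 16.0 and 17.1 kb in WT. At day 5 without XAV the genotypes overlapped, with 0 and 17.1 kb in KO, 7.22 and 4.43 kb in MUT, and 5.63 and 17.0 kb in WT. Over all time points mean width was 14.1 kb in KO, 12.9 kb in MUT and 8.67 kb in WT.

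Pou3f4, the X-linked class III gene, had no peak at its promoter or over the gene in any library, and the nearest peak lay 1.08 Mb away or farther.

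**Figure D5:**
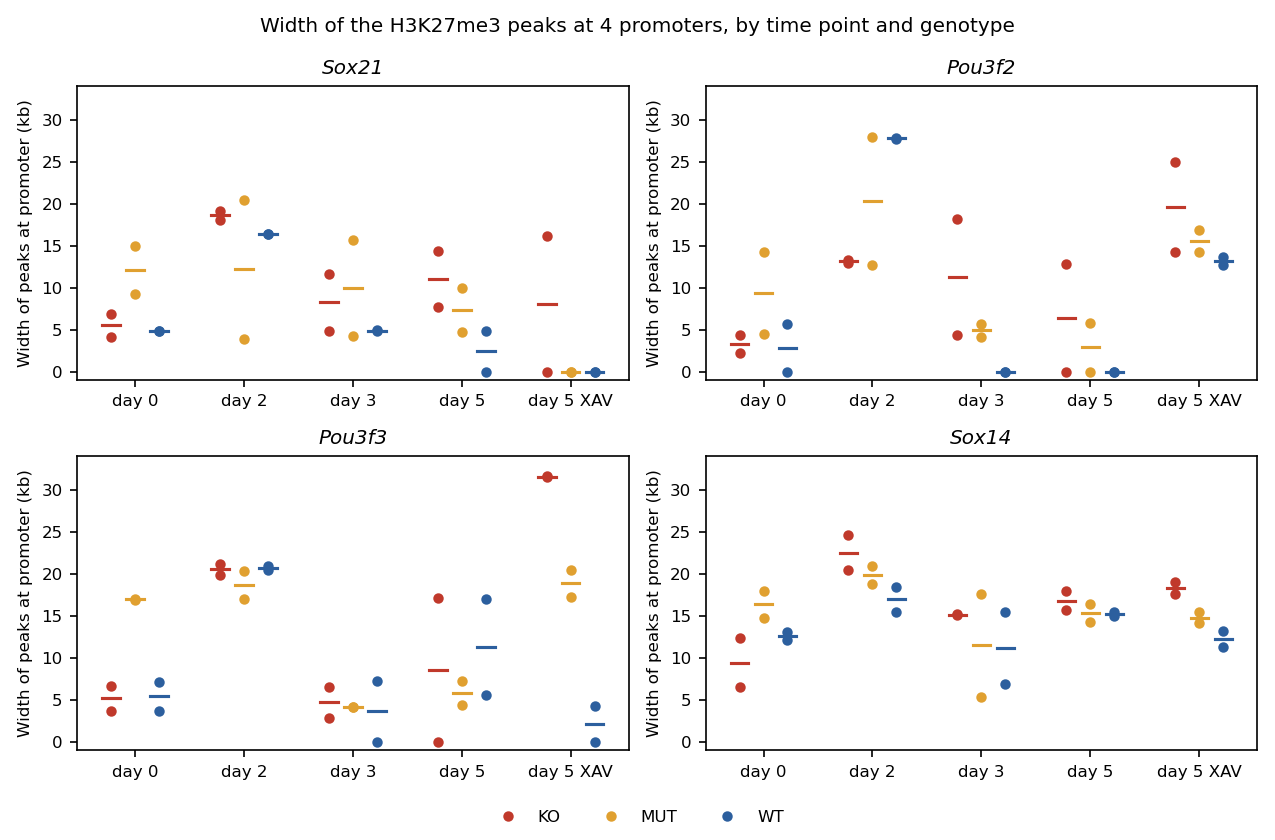
Summed width of the peaks at the promoter (vertical axis, kb, 0 where none was called) for Sox21, Pou3f2, Pou3f3 and Sox14 by time point, where each point is a line and the bar marks the genotype mean for KO (red), MUT (yellow) and WT (blue). KO lies above WT at day 5 XAV in Pou3f2, Pou3f3 and Sox14, and WT carries no peak at the Pou3f2 promoter at day 3 or day 5.

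Set against all promoters, the 9 genes lay on the same side as most. For KO against WT, 8 were tested, 7 were wider and 8 ranked higher in KO, with median differences of 1.86 kb and 10.8 percentile points. Sox2 and Sox3 are counted here, though they entered the test only through their calls in day 5 KO libraries. Their direction was therefore fixed by the filter. Over all 2856 promoters tested, 2204 were wider and 2167 ranked higher in KO, with medians of 0.743 kb and 4.74. The 2 smallest rank differences were those of Sox1 and Sox14, and with equal numbers of peaks both changed sign, to -8.35 for Sox1 and -0.72 for Sox14. In width the exact permutation p of the 7 genes besides Sox21 ranged from 0.0594 for Sox14 to 0.925 for Sox1. Of the 8 other SOX genes tested 7 were wider and 0 had an exact p under 0.05, and of the 7 other POU genes 6 were wider and 1, Pou4f2, had an exact p under 0.05, in rank (81.5 in KO and 72.1 in WT, exact permutation p = 0.0376, adjusted p = 0.263).

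For MUT against WT, 6 of the 9 genes were tested and 0 had an exact p under 0.05 in calls, width or rank, against backgrounds of 0.449%, 3.97% and 3.21% of 2895 promoters, and 0% passed after adjustment. The lowest exact permutation p of the 6 was 0.0502, for the rank of Pou3f2 (73.0 in MUT and 46.0 in WT). All 6 were wider in MUT, by a median of 1.93 kb. Over all 2895 promoters, 1865 were wider in MUT, and the median was 0.182 kb. For KO against MUT, 8 genes were tested and 0 had an exact p under 0.05 in width or rank, against backgrounds of 6.98% and 6.74% of 2951 promoters, and 0% passed after adjustment. Sox21 averaged 10.3 kb in KO and 8.30 kb in MUT, and Pou3f2 averaged 10.7 kb in KO and 10.6 kb in MUT. These designs allow a smallest exact p of 0.000257, and p-values above the threshold do not show that the genotypes act alike.

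In WT cells after day 2 against up to day 2, 5 of the 6 genes tested were narrower and 5 ranked lower. Their median differences were -7.78 kb and -24.0 percentile points. Over all 2096 promoters, 1891 were narrower and 1803 ranked lower, with medians of -2.96 kb and -17.2. An exact p under 0.05 was reached by 2 of the 6 in width (Sox1 and Sox21) and 1 in rank (Sox21), against 43.4% and 39.9% of all promoters. After adjustment, 0 of the 6 passed in either measure, against 13.1% of promoters in width and 14.3% in rank. Pou3f1 was the exception in direction, at 1.47 kb after day 2 and 1.31 kb up to day 2. WT libraries held 969 to 1717 peaks after day 2 and 1484 to 3450 up to day 2, so the number of peaks moved with this comparison, and its part was not tested.

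Some genes elsewhere in the genome had nearly the same calls over the 30 libraries. For Sox21 the closest was Plxnc1, with the same call in 29 libraries, followed by Cacna1g and Ccdc177 in 28 each. For Pou3f1 they were Add2, Dok7 and H2-Q2, in 28 each, for Pou3f2 Kdr and Prss12 in 28 and Hcrtr1 in 27, and for Pou3f3 1110032F04Rik, Adcy5 and Aqp5 in 28 each, where 40 genes reached that value and symbol order decided. For Sox21 and Pou3f1, 7 and 8 genes reached the value of the last gene named. All of these counts come from the same 30 libraries and share their numbers of peaks.

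The deposited region lists hold positions alone and were selected on the same KO and WT libraries, so that they are no independent evidence of a direction. The 8 promoters that were marked in any library all lie in 1 of the lists made without XAV. Sox1, Pou3f2 and a region over the Sox2 promoter are in the list named loss-gain-in-KO. Sox3, Sox21, Pou3f1 and a region 3.18 to 21.9 kb past the start of Sox2 are in the list named gain-gain-in-KO, and Sox14 and Pou3f3 are in the list named loss-loss-in-KO. The list of gains in KO at day 5 XAV holds Sox1, Sox14, Sox21, Pou3f2, Pou3f3 and the region past Sox2.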

How the data were processed

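H3K27me3 was mapped by CUT&RUN in 30 libraries, each with an IgG control that has no file of its own. Per the study's methods, the authors used Trim Galore for trimming and Bowtie for alignment to GRCm38.p6, marked duplicates with Picard and called peaks per library with SEACR against IgG in stringent mode (version not given in the sources used here). The deposited peak files give total and highest signal per peak as unscaled signal, which was used only as a rank within a library. Deposited region lists, from the authors' comparison, were used for position alone.

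A promoter was called where a peak covered at least 1 bp within 1.5 kb of a start site, over 21842 protein-coding genes. Promoters called in at least 2 libraries of a comparison were tested by exact two-sided permutation, of genotype within time points, of time within WT, or of XAV within genotypes, with Benjamini-Hochberg adjustment over all of them and a threshold of 0.05. Libraries of a line at different days were treated as separate, so p-values measure the spread between libraries, which may be technical. With and without XAV the same lines were used, which pairs them; their line differences at day 5 and day 5 XAV correlated at 0.171 in KO, -0.337 in MUT and 0.168 in WT over 2348 promoters.

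The genes and lists (stem cell, anterior neural, mesoderm and endoderm, housekeeping, other SOX and other POU genes) were chosen with earlier results of these data known. All 9 genes are named, with test values where an exact p was under 0.05 or a range or limit is given, and other SOX or POU genes where it was under 0.05 against WT. The 3 genes most alike in calls were named, leaving out those within 100 kb. Scripts used Python 3.11.15, NumPy 2.4.6, pysam 0.24.0 and Matplotlib 3.10.9 and were tested on simulated data. Alternatives were equal numbers of peaks, leaving out the weakest 25% of peaks, a 3 kb window, 500 bp covered, highest signal, a percentile among promoters called in all 30 libraries, each line left out and the line as a block.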

Additional observations from a re-analysis of the deposited data

Results flagged for a closer look

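For Pou3f2, KO minus WT in promoter peak width differed between the time points after day 2 and those up to day 2 by 15.1 kb, being 8.03 kb after day 2 and -7.07 kb up to day 2. The test of this difference itself gave an exact permutation p of 0.0116 (adjusted p = 0.185), and over 11 alternatives the exact p ranged from 0.00386 to 0.0823. KO25 was replaced by KO1 between the 2 periods, so that line and time cannot be told apart in KO.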

How the results depend on the processing

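In all 14 comparisons by measure, 0 of the 9 genes passed the adjusted threshold, and this held under every alternative but 2. With a 3 kb window, 1 gene passed in rank for WT after day 2 minus up to day 2, Sox1, by -3.54 percentile points (exact permutation p = 0.00476, adjusted p = 0.0331). With peak numbers made equal within each time point, 1 gene passed in rank with XAV, Sox14, at 86.6 with XAV and 94.1 without it (exact permutation p = 0.00926, adjusted p = 0.0275). The cause was not tested. With each line left out in turn, 0 genes passed in any comparison. The differences in width and rank with an exact p under 0.05 (Sox21, Pou3f2 and Sox1) kept their sign under the alternatives run, while smaller ones, such as KO minus WT for Sox1, did not. The measures added after the data were seen were not run under other settings, and the share of all promoters under 0.05 in them is not given. For Pou3f2 with XAV the exact permutation p ranged from 0.00926 to 0.0370 in width over 15 alternatives, and the adjusted p from 0.0850 to 0.592.

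With the line as a replicate block, Pou3f2 with XAV differed by 13.0 kb (exact permutation p = 0.0312, adjusted p = 0.592), and 0 genes passed. With the MUT lines crossed, 0 genes passed and 1 had an exact p under 0.05. In WT over time the block gave an exact permutation p of 0.0600 for Sox1 width and 0.0300 for Sox21 width.

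Calls near the limits moved. The Sox2 peak was called in 1 KO library in place of 2 with equal numbers of peaks or without the weakest 25% of peaks, Sox3 was also called in 1 MUT and 1 WT library with a 3 kb window, and Pou3f1 was called in 1 WT library in place of 3 with equal numbers. Read depth is unknown, and with 2 lines per genotype and time point no exact permutation test at a single time point can reach the threshold.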
